A study of Schizosaccharomyces pombe with 12 samples.

Results

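Fission yeast cells lacking the protein phosphatase Dis2 were compared directly with cells lacking Ppn1, the protein that holds Dis2 in the cleavage and polyadenylation factor. The comparison took the 3 dis2Δ and the 3 ppn1Δ libraries, 6 of the 12 of the series, which were chosen by their strain labels alone. The other libraries, 3 of wild-type and 3 of swd22Δ cells, entered no test here and are given as levels beside the results. All strains are haploid and labelled h+, and poly(A)+ RNA was taken from log phase cultures in YES medium, a rich medium, at 30°C. In ppn1Δ cells the gene was replaced by HygMX and in dis2Δ cells by NatMX, which are drug resistance markers. The swd22Δ label also names HygMX, so ppn1Δ and swd22Δ share a marker that dis2Δ does not carry. The wild-type label names no marker. Each strain has 1 laboratory strain number, so the 3 libraries of a strain are biological replicates of 1 isolate, and anything else that sets the isolates apart cannot be told apart from the deletion. The counts of mating type genes do not by themselves show the type: the P cell receptor gene map3 had 332 to 453 counts in the 6 libraries and map2 had 73 to 119, while of the M cell genes mam1 had 854 to 1074, mam2 had 84 to 129 and mfm1 had 7 to 20. Of the other M cell genes, mfm2 had 33 to 95 and mfm3 had 9 to 19. The M genes of the mating type loci, mat1-Mc, mat1-Mi, mat3-Mc and mat3-Mi, had 0 counts in every library.

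Dis2 is the fission yeast protein phosphatase 1, one of a pair of related catalytic subunits with Sds21, and acts in mitosis and on the transcription machinery. Ppn1 resembles the mammalian protein PNUTS and, with Swd22 and Dis2, forms a phosphatase module of the factor that cuts and polyadenylates the ends of mRNAs. Removing Dis2 takes away the enzyme everywhere in the cell, whereas removing Ppn1 takes away a partner that bridges it to the factor and leaves the enzyme itself. The direct comparison asks which transcripts separate these losses.

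The deleted genes came first as a check of the labels. dis2 had normalized counts of 858, 724 and 890 in the dis2Δ libraries and 14781, 14386 and 13359 in the ppn1Δ libraries, a log2 difference of -4.10 (standard error 0.0847, adjusted p = 2.0e-14; edgeR, quasi-likelihood F-test). A normalized count is a read count scaled to a library of 21019687 counts, and every log2 difference is dis2Δ minus ppn1Δ. ppn1 stood at 475, 488 and 469 in dis2Δ and at 101, 99.3 and 127 in ppn1Δ cells, a difference of 2.12 (standard error 0.124). Each gene was thus low in the strain that lacks it, with 6.61% of the wild-type mean left for dis2 and 21.3% for ppn1. These counts cover all annotated exons of a locus, whereas the authors report no reads over the deleted coding sequences. Where in the locus the remaining reads lie was not tested. The genotype label of the ppn1Δ libraries is spelled pp1_delta, and their other labels name ppn1. Sds21, the other catalytic subunit, had 3162 ± 64.6 in dis2Δ and 3588 ± 263 in ppn1Δ cells (SD, n = 3 each), a log2 difference of -0.18 (adjusted p = 0.042). Of the loci next to the deleted genes, hom6 beside dis2 was higher in dis2Δ by 0.40 (adjusted p = 0.00042) and ssp2 beside ppn1 was lower by 0.36 on the log2 scale (-0.36, adjusted p = 0.00033), both under 2-fold. snR93 and sly1, the neighbors on the other side, gave 0.06 and 0.03 (adjusted p = 0.85 and 0.74).

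A locus was called different at an adjusted p of at most 0.05, at least a 2-fold difference, and 100 or more normalized counts on average in dis2Δ or in ppn1Δ cells. Outside the deleted genes and the loci named SPAC186. and SPAC750., which are counted apart below, 46 of 4952 tested coding genes were called higher in dis2Δ than in ppn1Δ (0.929%), and 10 were called lower (0.202%). The called genes had a median log2 difference of 1.55 (range 1.00 to 4.09) when higher and -1.19 (range -2.21 to -1.0) when lower. In 45 of the 46 and in all 10 the 3 libraries of one strain did not overlap the 3 of the other; over the coding genes tested, 23% were higher and 19.9% lower without overlap. Of the 1010 non-coding loci tested, 17 were called higher (1.68%) and 18 lower (1.78%). Of the 88 loci of other classes, such as ribosomal RNA and pseudogenes, 5 were called higher (5.68%) and 2 lower (2.27%). Over all loci tested 75 were called higher (1.24%) and 31 lower (0.511%), with the deleted genes and the loci counted apart included. By the adjusted p alone, 834 coding genes were higher (16.8%) and 639 lower (12.9%), so that most differences between the strains were below 2-fold. The median difference over all coding loci was -0.01. The plot of the levels in the strains shows that the called loci lie mostly above the diagonal.

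**Figure D1:**
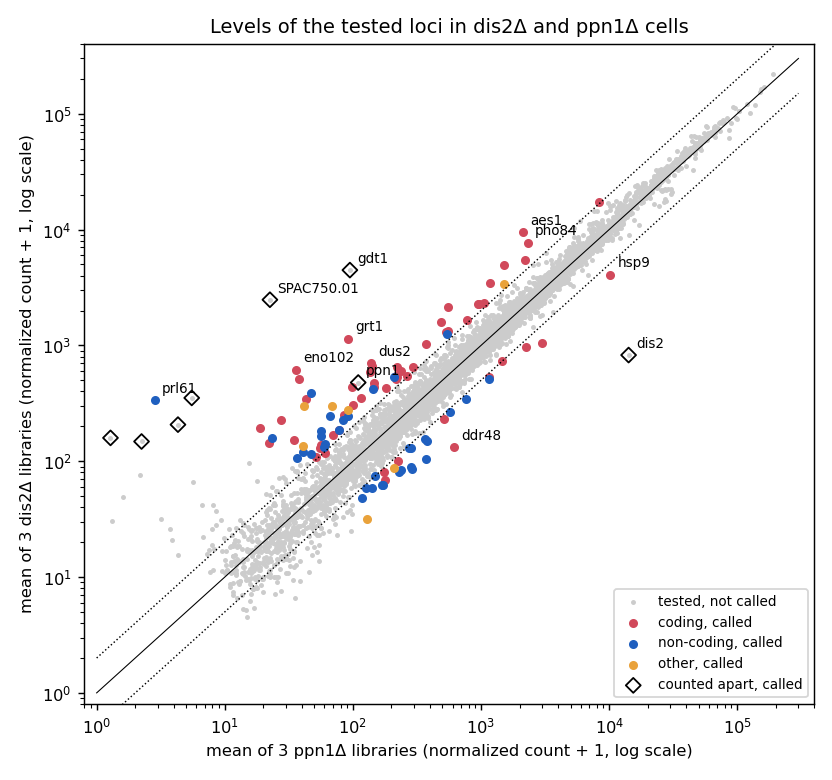
Mean normalized count plus 1 of each tested locus in ppn1Δ cells (x axis) and dis2Δ cells (y axis), both on log scales, 3 libraries each. Grey points were not called, colored points were called by class, open diamonds are the called loci counted apart, the solid line marks equal levels and the dotted lines a 2-fold difference; gdt1 and SPAC750.01 lie far above the lines and dis2 and ddr48 below.

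The 17 loci with the prefixes SPAC186. and SPAC750. form the right end of chromosome I in the order of annotated loci. Of these, 10 had enough counts to test, 6 were called higher in dis2Δ and 3 had no count in any of the 6 libraries. gdt1 (SPAC186.05c), which encodes a GDT1-like membrane protein, had 4491, 3908 and 4999 in the dis2Δ libraries and 234, 8.09 and 39.0 in the ppn1Δ libraries, a log2 difference of 5.53 (standard error 0.418, adjusted p = 1.5e-07). Replicate 1 held most of the ppn1Δ reads, and without it the difference was 7.44. SPAC750.01, an aldo/keto reductase gene, had 2301, 2383 and 2749 against 23.3, 24.3 and 16.9, a difference of 6.86 (standard error 0.129). All ppn1Δ libraries were far below all dis2Δ libraries at both genes.

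ftm4 (SPAC750.05c), a membrane protein gene, had 453 counts in the 3 dis2Δ libraries together and 1 in the ppn1Δ libraries, a ratio of 490 with a 95% counting interval from 87.5 to 19406 (exact binomial, counting error only). Of its windows of 51 bases, the read length, only 7.79% are unique in the genome, so that reads may have been shared with copies. SPAC186.04c, SPAC186.06 and SPAC186.03, the latter an asparaginase gene, were also called, with log2 differences of 6.70, 6.25 and 5.82. The share of unique windows was 38.1% at SPAC186.03 and 67.5% at SPAC750.01, and 100% at gdt1, SPAC186.04c and SPAC186.06. pdc102, a pyruvate decarboxylase gene, and SPAC186.08c, a lactate dehydrogenase gene, differed by 5.74 and 5.98 but were under the mean-count cutoff. Among these loci lies the non-coding RNA prl61, with 348, 309 and 355 in dis2Δ and 4.66, 0 and 0.847 in ppn1Δ cells, a difference of 7.37 (adjusted p = 2.5e-10).

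The block of low ppn1Δ counts ended within the prefix. SPAC186.02c and pfl9 (SPAC186.01), the last of these loci away from the chromosome end, had 18 to 30 and 396 to 678 counts in the ppn1Δ libraries, and their differences were 0.84 and 0.64 (adjusted p = 0.02 and 0.0076). The swd22Δ libraries, from cells without the other member of the module, had the same kind of low counts, for example 26.1, 10.7 and 41.3 at gdt1, while wild-type libraries had 3050, 2868 and 3167. The wild-type mean was not near dis2Δ at every locus. SPAC186.03 had 5.88 in wild-type, 206 in dis2Δ and 3.31 in ppn1Δ. SPAC186.06 had 80.3 in wild-type and 351 in dis2Δ, and SPAC186.04c had 30.7 and 147. ftm4 had 119 and 158, and SPAC750.01 had 1574 and 2477. No test against wild-type was made. Whether ppn1Δ and swd22Δ cells lack the chromosome end or transcribe it less cannot be told apart from counts.

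Of the 46 higher coding genes, 17 lie within 40 annotated loci of a chromosome end, and without those loci 29 were called. The left end of chromosome II held most of them. Of its 40 outermost loci of all classes 27 were tested, 26 were higher in dis2Δ by the adjusted p and none was lower. Of the 27, 14 were called, with SPNCRNA.1301, SPNCRNA.1307, SPBC1348.11 and SPBPB21E7.08 among them, which are not classed as coding. The median difference was 2.15. The counts at the other ends and in the rest of the genome also cover all classes. At the left end of chromosome I, 8 of 18 tested were higher and none lower, with a median of 0.41, and at its right end, without the loci counted apart, 9 of 16 were higher and none lower (median 0.55). The right end of chromosome II had 11 higher and 2 lower of 24 (median 0.27). The ends of chromosome III, which carry the ribosomal DNA, had 4 higher and 4 lower of 26 on the left and 7 higher and 7 lower of 36 on the right, with medians of -0.10 and -0.05. In the rest of the genome 918 of 5891 tested loci were higher and 848 lower, and the median was -0.02. Ends of chromosomes I and II are known as silenced chromatin in fission yeast. The plot along the chromosome ends shows the run of high values on the left of chromosome II.

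**Figure D2:**
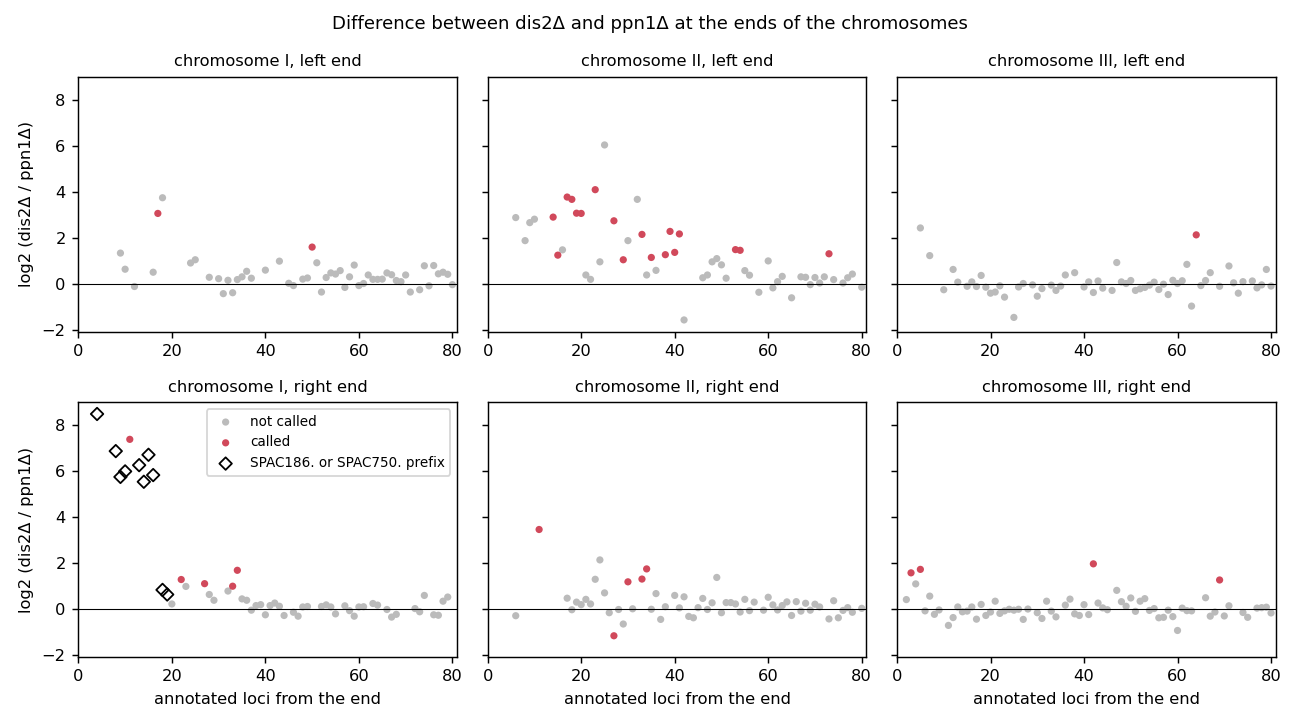
Log2 difference between dis2Δ and ppn1Δ cells (y axis) of each tested locus among the 80 annotated loci nearest each chromosome end (x axis, position counted from the end), for chromosomes I to III. Red points were called, grey points were not, and open diamonds are the loci named SPAC186. and SPAC750.; the left end of chromosome II lies mostly above 0, with a median of 2.15 over its outer 40 loci.

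eno102, 1 of the enolase genes, had 580, 623 and 649 in dis2Δ and 31.7, 21.9 and 51.7 in ppn1Δ libraries, a log2 difference of 4.09 (standard error 0.185, adjusted p = 3.9e-10). The wild-type level was 61.1 ± 11.4 and the swd22Δ level 23.3 ± 8.52 (SD, n = 3 each), and the dis2Δ mean was the highest of the strains. The next genes form a cluster. SPBPB8B6.02c, which encodes a urea transporter, had 528, 507 and 493 against 36.4, 32.3 and 41.5, a difference of 3.77 (adjusted p = 3.7e-11). grt1, a transcription factor gene, had 1083, 1168 and 1178 against 99.8, 107 and 65.2, a difference of 3.67 (standard error 0.136). fah1, which encodes an acetamidase, had 232, 212 and 235 against 22.4, 25.4 and 32.2, a difference of 3.07. These 3 genes and the non-coding RNA SPNCRNA.1301, which differed by 3.06, follow one another, and both fah1 and SPNCRNA.1301 overlap grt1 on the opposite strand in ASM294v3. No ppn1Δ library reached a dis2Δ library at any of them, and the wild-type means of the 3 genes were 20.1, 95.6 and 16.2.

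Further along the same end, SPBPB21E7.11 had 135, 133 and 159 against 28.9, 18.5 and 16.1, a difference of 2.74. SPBPB10D8.02c, an arylsulfatase gene, had 595, 634 and 779 against 107, 170 and 140, a difference of 2.28 (standard error 0.150). It sits in a run of 4 called loci with the cysteine transporter gene SPBPB10D8.01 (1.27), SPNCRNA.1307 (1.37) and SPBPB10D8.03 (2.17). aes1 was the most abundant gene of the group, with 8930, 9568 and 9798 in dis2Δ and 1968, 2401 and 2007 in ppn1Δ cells, a difference of 2.15 (standard error 0.0783, adjusted p = 3.7e-11), and 1287 ± 177 in wild-type. Every dis2Δ library lay far above every ppn1Δ library. One locus just beyond these went the other way: SPBPB10D8.04c, annotated as a transporter, differed by -1.56 (adjusted p = 0.0024) at means of 9.88 and 30.0, under the cutoff.

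SPAC977.18 and SPBPB2B2.18, at the left end of chromosome I and the right end of chromosome II, had another pattern. SPAC977.18 had 360, 462 and 214 in dis2Δ and 44.8, 52.0 and 29.6 in ppn1Δ libraries, a difference of 3.06, and 223 ± 102 in wild-type (SD, n = 3). SPBPB2B2.18 had 22.9, 340 and 217 against 9.33, 30.0 and 14.4, a difference of 3.46 (standard error 0.681, adjusted p = 0.0015), and was the 1 higher coding gene whose libraries overlapped between the strains. Only 16% and 5.96% of their windows are unique, so that their reads may come from copies. At the right end of chromosome I beyond the loci counted apart, the amidase gene SPAC869.01 had 130 ± 24.9 in dis2Δ and 53.9 ± 17.8 in ppn1Δ, a difference of 1.29, with a wild-type mean of 2.78, and the urea transporter gene SPAC869.03c had 82.0, 95.3 and 144 against 35.4, 78.5 and 38.1, a difference of 1.11. The call of SPAC869.03c was lost without dis2Δ replicate 3 (0.84) and without ppn1Δ replicate 1 or 3 (0.92 and 0.94).

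**Figure D3:**
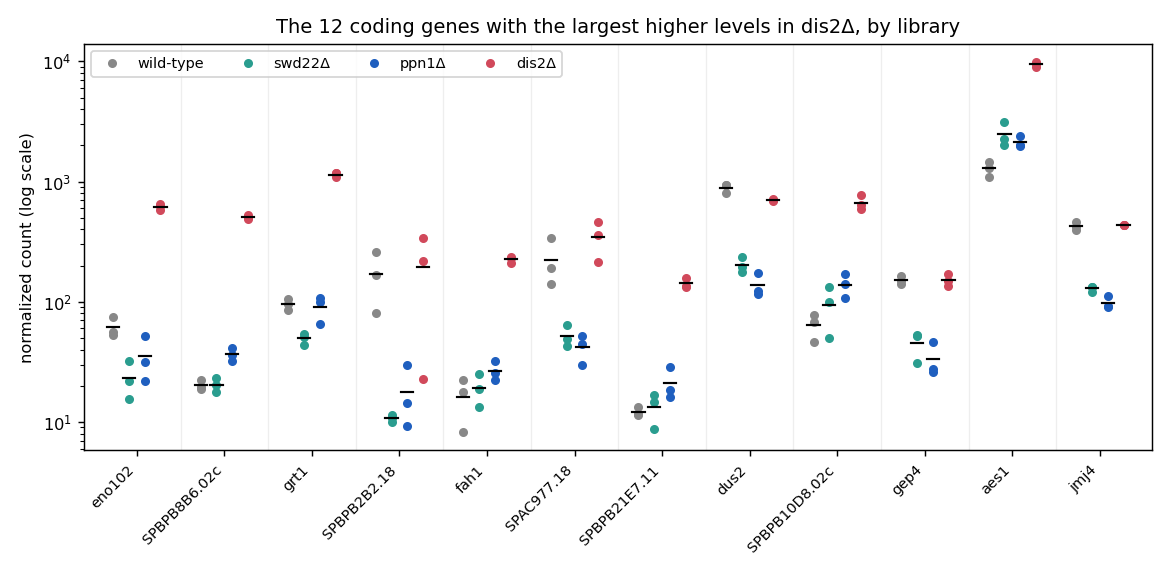
Normalized counts (y axis, log scale) of the 12 coding genes with the largest log2 differences among those called higher in dis2Δ, in each of the 3 libraries of wild-type, swd22Δ, ppn1Δ and dis2Δ cells. Bars mark means; eno102, SPBPB8B6.02c, grt1, fah1 and aes1 are high in dis2Δ alone, while dus2, gep4 and jmj4 are near wild-type in dis2Δ and low in ppn1Δ and swd22Δ.

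Setting the means beside wild-type splits the higher genes. In 26 of the 46 the wild-type mean was nearer to dis2Δ, and in 20 it was nearer to ppn1Δ, on a log2 scale. Of the 17 genes near chromosome ends 13 were of the latter kind, and of the 29 elsewhere 22 were of the former. The swd22Δ mean was nearer to ppn1Δ in 42 of the 46. These are positions of means and no test was made on them.

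The largest differences among genes with a wild-type level near that of dis2Δ were at dus2, gep4, jmj4 and SPCC330.03c, outside the chromosome ends. dus2, which encodes a tRNA dihydrouridine synthase, had 698, 715 and 688 in dis2Δ and 123, 117 and 175 in ppn1Δ libraries, a log2 difference of 2.32 (standard error 0.132, adjusted p = 6.8e-09), against 888 ± 75.3 in wild-type and 202 ± 31.8 in swd22Δ (SD, n = 3 each). gep4, whose protein acts in cardiolipin synthesis in mitochondria, had 136, 150 and 170 against 26.1, 27.7 and 46.6, a difference of 2.16. jmj4, annotated as a histone demethylase gene, had 433, 433 and 439 against 92.3, 90.1 and 112, a difference of 2.14 (standard error 0.124). The groups did not overlap at any of these genes. SPCC330.03c, a cytochrome b5 reductase gene, had 581, 664 and 528 against 132, 116 and 155, a difference of 2.13.

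Others of this kind, named after their values were seen, were rad31 of the SUMO activating enzyme (1.69), inv2, a secreted sugar hydrolase gene (1.68), pwi1, a splicing coactivator gene (1.58), rlp1, a RecA family ATPase gene (1.57), cdk11, a kinase gene (1.26), and taf9 of the TFIID and SAGA complexes (1.09).

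The position of these genes was then described. In 20 of the 26 genes the coding gene on the 5′ side lies on the same strand (76.9%), against 45.8% of all tested coding genes and 50% of the 20 genes whose wild-type level was nearer to ppn1Δ. The upstream genes had a median level of 3479 normalized counts per kb of annotated span, against 599 for all tandem pairs, and 8 of the 20 were at 10000 or more per kb (40%), against 5.59%. dus2 follows sks2, a ribosome-associated Hsp70 gene, jmj4 follows rpl6, rlp1 follows rps27, cdk11 follows rps1601, pwi1 follows rps1802 and SPAC222.17 follows atp2. Of the 20 upstream genes themselves, 5 were higher in dis2Δ by the adjusted p, none was lower and 15 did not pass the test, with a median log2 difference of 0.10 (range -0.30 to 1.75). The 5 were pho84, upstream of pho1 and itself called (1.75), SPAC8E11.10, upstream of rmt2 (0.83), SPAC56F8.13, upstream of SPAC56F8.15 (0.64), rpl6 (0.42) and rad24, upstream of inv2 (0.25). Among the 15 were sks2 (0.14), rps27 (-0.08), rps1601 (0.08), rps1802 (0.09) and atp2 (-0.10). The position was noticed after the genes were called, the limit of 10000 was set then too, and no test of it was made. Of the 46 higher genes, 15 overlap a coding gene on the opposite strand in ASM294v3 (32.6%, against 38.1% of those tested), where the counts depend on whether strand was used.

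The phosphate genes pho84 and pho1 were below wild-type in both strains by their means and higher in dis2Δ than in ppn1Δ. pho84, the phosphate transporter gene, had 8978, 8041 and 6157 in dis2Δ and 2442, 2318 and 2153 in ppn1Δ libraries, against 32224 ± 1514 in wild-type (SD, n = 3). pho1, the secreted acid phosphatase gene next to it, had 6103, 5654 and 4494 against 2410, 2011 and 2145, and 30997 ± 963 in wild-type. The dis2Δ libraries lay above all ppn1Δ libraries and far below wild-type at both genes, which lie within 40 loci of the right end of chromosome II, and replicate 3 was the lowest dis2Δ library at each. With each library left out in turn the log2 difference stayed from 1.62 to 1.89 for pho84 and from 1.21 to 1.43 for pho1. tgp1, another gene of the phosphate pathway, which encodes a transporter, differed in the opposite direction, with 259, 268 and 224 against 325, 351 and 299 (-0.37, adjusted p = 0.026), and its wild-type level of 279 ± 17.0 (SD, n = 3) lay between the strains. Of the 8 phosphate genes tested, 5 did not pass the test, among them pho7, which encodes their activator (-0.11, adjusted p = 0.16), asp1, a kinase and phosphatase of inositol pyrophosphates (0.01), and the lncRNA prt2 upstream of pho84 (0.00, adjusted p = 0.98). SPBC19C7.04c, another gene far below wild-type in both strains, had 746 ± 161 in dis2Δ and 746 ± 93.6 in ppn1Δ cells (SD, n = 3 each), a log2 difference of 0.01 (adjusted p = 0.98), against 5187 ± 1177 in wild-type.

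mei2, whose RNA-binding protein switches cells into meiosis, was called higher in dis2Δ, with 668, 669 and 624 against 331, 252 and 296 (1.15, standard error 0.106, adjusted p = 1.3e-06) and 1511 ± 162 in wild-type (SD, n = 3). Its neighbor omt3, a meiotic lncRNA, had 167, 142 and 163 against 22.4, 13.9 and 30.5, a difference of 2.78, with 302 ± 32.5 in wild-type. ste11, the transcription factor gene for mating and meiosis, had 1747, 1500 and 1140 against 842, 770 and 865, a difference of 0.82 (standard error 0.117, adjusted p = 9.5e-05), under 2-fold. All 3 were lower in both deletion strains than in wild-type by their means and lowest in ppn1Δ. Of the 20 mating and pheromone genes tested, 9 were higher in dis2Δ by the adjusted p (45%) and 1 was lower (5%, median 0.12). Over all coding genes tested, 16.8% were higher and 12.9% lower. The higher ones included spk1, byr1 and byr2, kinases of the pheromone cascade (0.89, 0.35 and 0.41), gpa1, its G protein subunit (0.60), and ste4 (0.61). The lower one was ste6, a Ras activator gene (-0.58, adjusted p = 0.0015). Of the 15 meiotic genes tested, mei2 and rec12, which starts meiotic recombination, were higher (1.15 and 0.81) and rec10 was lower (-0.57), with a median of -0.13. These shares, 13.3% higher and 6.67% lower, were below those of all coding genes.

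Several higher genes had wild-type levels near ppn1Δ and lay beyond the 40 outermost loci. SPBC1271.07c, an N-acetyltransferase gene, had 3540, 3308 and 3421 in dis2Δ and 1092, 1107 and 1310 in ppn1Δ libraries, a log2 difference of 1.55, and SPBC1271.08c next to it differed by 1.25. SPCC70.08c, a methyltransferase gene, had 2108, 2093 and 2234 against 533, 596 and 516, a difference of 1.97. pfl7, a flocculin-like surface glycoprotein gene, had 1126, 984 and 978 against 349, 445 and 310 (1.49, adjusted p = 2.1e-07), with 287 ± 18.1 in wild-type (SD, n = 3). spo6, a regulatory subunit gene for a meiotic kinase, had 217, 279 and 250 against 65.3, 85.5 and 101, a difference of 1.56. Of the 12 flocculin genes and regulators tested, 3 were higher (25%) and 1 lower (8.33%), against 16.8% and 12.9% of all coding genes. The flocculin activator gene mbx2 was at -0.13 (adjusted p = 0.35). Apart from these, lys12, an enzyme gene of lysine synthesis, was called higher at 17997, 17392 and 16357 against 9178, 7753 and 8266 (1.04), a call that was lost without ppn1Δ replicate 2 (0.98).

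The 10 genes called lower in dis2Δ fall into those that were high in ppn1Δ and those that were low in dis2Δ by the same comparison of means. ddr48 had 132, 114 and 150 in dis2Δ and 561, 649 and 634 in ppn1Δ libraries, a log2 difference of -2.21 (standard error 0.120, adjusted p = 4.6e-09), against 69.9 ± 16.8 in wild-type and 339 ± 52.4 in swd22Δ (SD, n = 3 each). SPAPB18E9.04c, an uncharacterized gene, had 1079, 1063 and 1029 against 2968, 3022 and 2913, a difference of -1.49 (standard error 0.0582), and 68.2% of its windows are unique. hsp9, a heat shock protein gene of the plasma membrane, had 3943, 3753 and 4547 against 10647, 9189 and 10699 (-1.32, adjusted p = 1.4e-08), with 4453 ± 1222 in wild-type. In all 3 the dis2Δ level was the nearer one to wild-type.

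SPAC4H3.03c, a glucan glucosidase gene, and SPBC24C6.09c, a phosphoketolase gene, had the same order of strains at lower levels, with 67.5 ± 11.2 against 177 ± 15.3 and 98.8 ± 20.3 against 224 ± 15.9 (SD, n = 3 each; differences of -1.38 and -1.19). lsd90 had 413, 522 and 658 against 1254, 1097 and 1083 and 260 ± 41.0 in wild-type, a difference of -1.11, and its call was lost without dis2Δ replicate 1 (-0.95).

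urg1, a gene regulated by uracil and annotated as a GTP cyclohydrolase, had 1248, 944 and 710 in dis2Δ and 1941, 3179 and 1548 in ppn1Δ libraries, a difference of -1.19 (standard error 0.213, adjusted p = 0.00072), and 5223 ± 510 in wild-type. rds1 had 639, 716 and 831 against 1554, 1356 and 1455, a difference of -1.0 at the edge of the cutoff, and 2688 ± 194 in wild-type. his3, a histidine synthesis gene, had 257, 126 and 308 against 342, 597 and 610, a difference of -1.16. SPAC1687.08 had 88.6, 57.2 and 94.7 against 117, 210 and 193, a difference of -1.10. At all 4 the wild-type mean lay above both deletion strains, though barely above ppn1Δ at his3, and dis2Δ was the lowest. Each of these calls, like that of lsd90, was lost when certain single libraries were left out. That of urg1 was lost without ppn1Δ replicate 2 (-0.85) and that of his3 without dis2Δ replicate 2 (-0.87). The call of SPAC1687.08 was lost without dis2Δ or ppn1Δ replicate 2 (-0.91 and -0.95). For rds1 it was lost without dis2Δ replicate 1 or 2 or ppn1Δ replicate 1 (differences from -1.10 to -0.91 over the libraries left out).

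**Figure D4:**
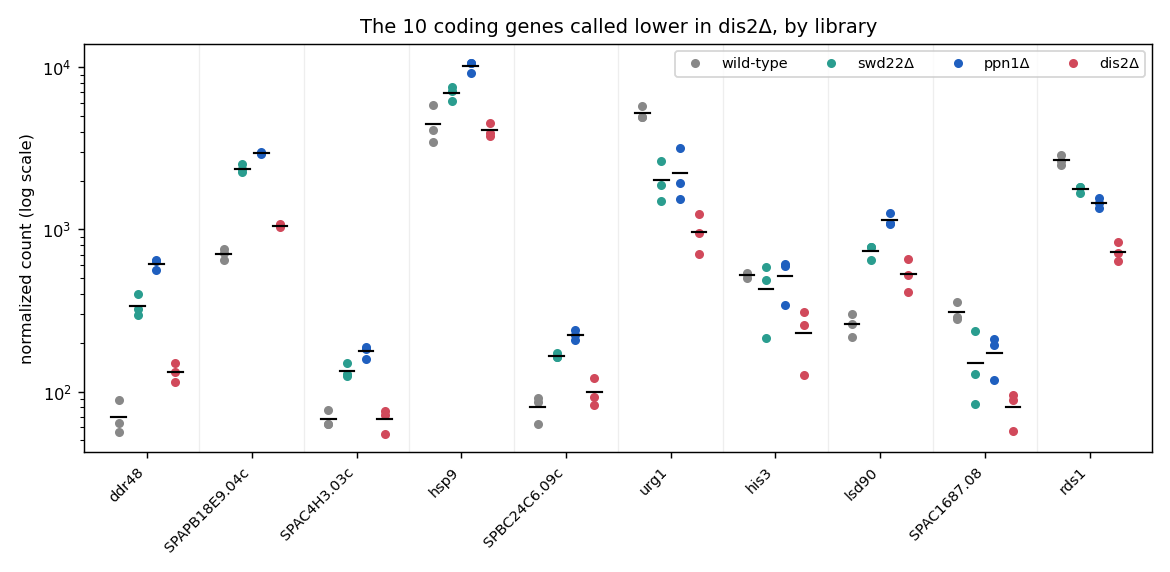
Normalized counts (y axis, log scale) of the 10 coding genes called lower in dis2Δ than in ppn1Δ cells, in each of the 3 libraries of wild-type, swd22Δ, ppn1Δ and dis2Δ cells. Bars mark means; ddr48, SPAPB18E9.04c, hsp9 and lsd90 are highest in ppn1Δ, whereas urg1, SPAC1687.08 and rds1 are highest in wild-type and lowest in dis2Δ.

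The called non-coding loci divided almost evenly. After prl61, which is among the 17, the largest higher differences were those of SPNCRNA.1301 and omt3, described above, and of SPNCRNA.798, with 236, 232 and 264 in dis2Δ and 65.3, 54.3 and 77.9 in ppn1Δ libraries, a difference of 1.87. SPNCRNA.905 was the lowest, with 102, 89.7 and 117 against 334, 368 and 419, a log2 difference of -1.86 (standard error 0.141, adjusted p = 1.5e-07). It overlaps inv2 on the opposite strand in ASM294v3, and inv2 differed in the other direction (1674, 1552 and 1505 against 495, 418 and 553). SPNCRNA.936 had 90.5, 71.7 and 91.5 against 270, 327 and 269 (-1.76), SPNCRNA.1564 had 98.2, 75.1 and 89.4 against 290, 312 and 245 (-1.68), and SPNCRNA.1033 had 68.6, 93.0 and 86.2 against 219, 217 and 270 (-1.52). No library of one strain entered the range of the other at these loci. Over the non-coding loci tested, 17.6% were higher and 29.3% lower without overlap.

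Of the 18 lower non-coding loci, 17 had wild-type means nearer to dis2Δ and 17 had swd22Δ means nearer to ppn1Δ. For the 17 higher loci the wild-type mean was nearer to dis2Δ in 9. All 17 had swd22Δ means nearer to ppn1Δ. Of the lower loci 15 overlap a coding gene on the opposite strand (83.3%), and of the higher ones 12 (70.6%), against 72.1% of those tested, so a part of their counts cannot be told apart from their partner without strand. By the adjusted p alone 133 non-coding loci were higher (13.2%) and 207 lower (20.5%), with a median of -0.10 over all 1010. Among the loci of other classes snoR39b, a small nucleolar RNA that overlaps rpl701, had 30.5, 26.9 and 35.1 against 145, 144 and 91.5, a difference of -2.03.

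Gene groups were described by their members, beside 16.8% higher and 12.9% lower over all coding genes and a median of -0.01. The hexose transporters had the highest median of the lists. Of 8 genes, 5 were higher in dis2Δ by the adjusted p, 2 were lower and the median was 0.73. ght5, the main high-affinity glucose transporter gene, had 13244, 15020 and 15080 in dis2Δ and 7995, 7331 and 7659 in ppn1Δ libraries (0.91, standard error 0.0684, adjusted p = 1.3e-07), against 1155 ± 76.8 in wild-type (SD, n = 3). All dis2Δ libraries were above all ppn1Δ libraries, and both strains were far above wild-type. Of the windows of ght5, 70.7% are unique, so that reads may have been shared with related genes. ght3 differed by 0.99, and ght6 and ght7, at means under the cutoff, by 1.84 and 1.48. ght7 is locus 16 from the left end of chromosome II, within the run of higher loci described above. ght2 and ght8, both abundant, were lower in dis2Δ, by 0.37 and 0.43 on the log2 scale (-0.37 and -0.43, adjusted p = 0.0004 and 0.00072).

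The histone genes were lower in dis2Δ in 9 of 10 cases, none by 2-fold, with a median of -0.57. hta2 had 18151, 17786 and 16825 in dis2Δ and 27417, 29119 and 26711 in ppn1Δ libraries (-0.66, adjusted p = 2.6e-06), and hhf1 had 18776, 17167 and 15965 against 27769, 27949 and 25096 (-0.64). The smallest of the 9 was hht2 (-0.20, adjusted p = 0.041). The exception, pht1, encodes the variant H2A.Z and had 3345, 3150 and 3035 against 3085, 3268 and 3088 (0.01, adjusted p = 0.88). The genes of the core histones are known to be transcribed in S phase, and the share of cells in each phase was not measured here. The wild-type means of hta2 and hhf1 lay between those of the strains.

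Cytosolic ribosomal protein genes leaned the other way. Of the 141 genes with symbols in rpl, rps or rpp, 62 were higher in dis2Δ (44%) and 4 lower, with a median of 0.17, and no gene reached 2-fold. The symbols in rpp include subunits of ribonuclease P, among them rpp21 (0.69); with rpl and rps alone, 57 of 131 were higher and 4 lower. rps1002 was the highest of these at 0.69 and rpl102 the lowest at -0.30. Since these mRNAs are abundant, the scaling of the libraries bears on so small a shift: with library size alone the median over all loci moved from -0.02 to -0.10.

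The lists of stress genes had medians a little below that of all coding genes. Of 13 heat shock chaperone genes 2 were lower (15.4%) and none higher, hsp9 among the 2 (median -0.10). hsp16 had 4951, 5770 and 4457 in dis2Δ and 7960, 3885 and 7763 in ppn1Δ libraries (-0.37, adjusted p = 0.14), where ppn1Δ replicate 2 stood apart from the other libraries of its strain, as it did for hsp104 (4336, 2122 and 4623). Of 20 core stress genes 2 were higher (10%) and 5 lower (25%), with a median of -0.12. The lower ones included gpd1 of glycerol synthesis (-0.61), ctt1, the catalase gene (-0.53), and atf1, a transcription factor gene of the stress pathway (-0.35). In the group regulated by uracil, urg2 and urg3 had differences of -0.91 and -0.40 beside urg1, while fur4, the uracil permease gene, was at 0.23, and 2 of 6 were higher and 3 lower. Of 11 iron acquisition genes 2 were higher and 1 lower, the latter str1, a siderophore transporter gene (-0.62, adjusted p = 0.0015).

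The phosphatases and the cleavage and polyadenylation factor themselves were nearly level. Of 10 phosphatase genes tested, dis2 and ppn1 left out, only sds21 passed the test. Of 20 genes of the factor, 4 were higher (rna15 at 0.49, cft2 at 0.32, clp1 at 0.30 and mpe1 at 0.26) and none lower. Of 25 mitosis and kinetochore genes 4 were higher and 3 lower, between -0.45 for cnp3 and 0.51 for bub3. The remaining lists had medians from -0.14 to 0.26: 2 higher and 4 lower of 14 glucose signalling genes, 0 and 2 of 8 thiamine-repressed genes, 5 and 6 of 21 cell wall genes, 2 and 1 of 11 calcium genes, 2 and 9 of 33 respiratory chain genes, 12 and 14 of 101 genes of mitochondrial products and 0 of 3 Tf2 elements. Among 197 genes annotated as transporters 57 were higher (28.9%) and 38 lower (19.3%), and among 170 annotated as dehydrogenases or reductases 56 were higher (32.9%) and 17 lower (10%). The regulatory RNAs prt and nc-tgp1 and the genes matmc_1, matpi_1 and glc9 were not matched by these names and were not analysed in the lists. The plot of the gene lists shows hexose transporters at the top and histones at the bottom.

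**Figure D5:**
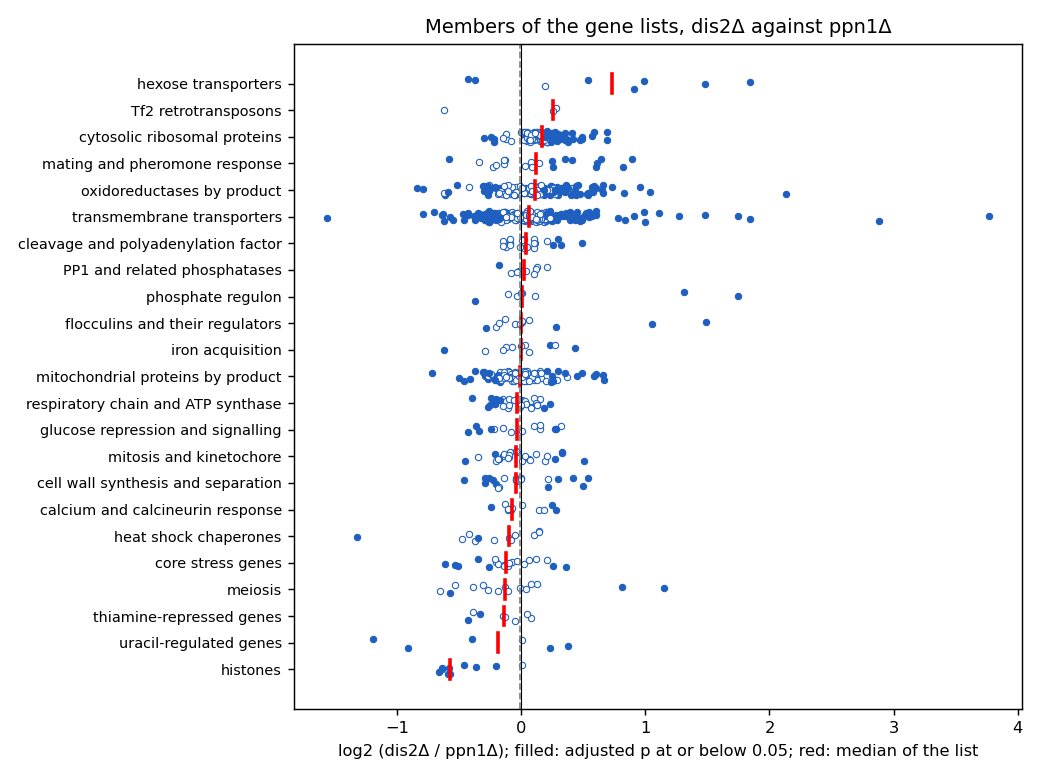
Log2 difference between dis2Δ and ppn1Δ cells (x axis) of each tested member of the gene lists (y axis), without the deleted genes and the loci counted apart. Filled points passed an adjusted p of 0.05, red bars are the median of each list and the dashed line is the median of all coding genes at -0.01; the list medians run from -0.57 for histones to 0.73 for hexose transporters.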

How the data were processed

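Poly(A)+ RNA of fission yeast was sequenced from 3 dis2Δ, 3 ppn1Δ, 3 swd22Δ and 3 wild-type cultures. The authors prepared stranded libraries, mapped reads with HISAT2 2.1.0, counted them with HTSeq 0.10.0 on exons of the ASM294v2 annotation, and deposited raw counts per locus; the strand setting of the counting is not given in the sources used here. The table holds 6986 loci, of which 6837 matched the ASM294v3 annotation, used for names, classes and the order of loci; 149 did not. The 6 libraries compared held 17616688 to 23435936 counts. Replicate libraries were further apart than counting noise allows (chi-square divided by its degrees of freedom, 5.38 to 23.6). Each library is a biological replicate and counts as a sample. Library totals set the counting error alone, and the p-values rest on the spread between cultures of 1 isolate per strain.

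edgeR 4.0.16 in R 4.3.3 (filterByExpr, TMM, quasi-likelihood test) was fitted to the 6 libraries, with Benjamini-Hochberg adjustment over 6062 loci; common dispersion was 0.005082. The authors' cutoffs were kept, but they used DESeq2, here an alternative (1.42.0). Wild-type and swd22Δ levels were put on the same scale with TMM factors of all 12 libraries. Windows of 51 bases were counted over the ASM294v3 genome. The test was tried on simulated counts first. Genes named are the deleted genes, their neighbors, sds21, the 12 largest coding and 4 largest non-coding differences in each direction (10 coding genes were called lower), the called loci with the SPAC186. and SPAC750. prefixes, called list members and pho1, pho84, tgp1, ste11, mei2, SPBC19C7.04c and ght5; others were named after their values were seen. The comparison and the gene lists were chosen with earlier results of these data known. Alternatives were other tools, scalings, filters and cutoffs, a replicate block and leaving out each library.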

Additional observations from a re-analysis of the deposited data

How the results depend on the processing

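The counts of called loci were recomputed under 20 other settings and 1 chosen after seeing the data. DESeq2 on 6 or 12 libraries, edgeR on all 12, other scaling factors, the filters on low counts, an adjusted p of 0.01 and the fit without the loci counted apart kept all counts within 1.5 times. DESeq2 on the 6 libraries called 47 coding genes higher, 46 of them shared with edgeR, and 9 lower. The cutoffs moved the counts most. In the order coding higher, coding lower, non-coding higher and non-coding lower (46, 10, 17 and 18 as reported), dropping the fold-change cutoff gave 809, 615, 94 and 119, and a test against a 2-fold threshold gave 25, 3, 6 and 3. Dropping the mean-count cutoff gave 21 coding lower, 34 non-coding higher and 68 non-coding lower, and a mean of at least 500 gave 28 coding higher, 2 non-coding higher and 3 non-coding lower. Without the 40 loci nearest each chromosome end 29 coding genes were higher. Leaving out each library gave 46 to 51, 7 to 11, 18 to 21 and 17 to 20. Differences near 0 changed sign: snR93 (-0.02), sly1 (-0.05) and SPBC19C7.04c (-0.08) with library size only, SPBC19C7.04c with the replicate block (-0.01), and, with each library left out, sly1 (-0.01 to 0.09) and SPBC19C7.04c (-0.18 to 0.14) without dis2Δ replicate 1 or ppn1Δ replicate 3; the cause was not tested.

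Replicate numbers did not pair the samples: correlations of same-numbered deviations were 0.018, -0.113 and 0.249. With the replicate block 47 coding genes were higher, 10 lower, and 17 and 18 non-coding loci were called. Near the mean-count cutoff counting noise limits the calls.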
